A study of Homo sapiens with 6 samples.

Results

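Cytokine receptors that signal through JAK kinases and STAT transcription factors are held in check by 2 kinds of protein examined here, the suppressors of cytokine signalling and the protein inhibitors of activated STAT. The transcripts of SOCS1 to SOCS7, CISH, PIAS1 and PIAS3 were read in RNA sequencing of DCIS.COM cells. These 10 genes were taken by symbol from the 58676 genes of the expression table. The comparison was used as a transcript readout of STAT feedback.

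DCIS.COM cells, a long-established human line of basal type, serve as a model of ductal carcinoma in situ (DCIS), the non-invasive stage of breast cancer. All cells were transduced with a lentiviral PLKO.1 vector and grown in DMEM/F12 medium with horse serum and antibiotic. The NS control cells carried the non-silencing PLKO.1 vector and the BCL9 KD cells carried PLKO.1 with an shRNA against BCL9, a co-activator first known from Wnt signalling. The labels and the table give each group 3 samples, with a T75 flask per sample, whereas the methods name fewer replicates per condition for the differential test. A single BCL9 shRNA was used, so loss of BCL9 and other effects of that hairpin cannot be told apart, and p-values measure only the spread between flasks of transduced cells.

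SOCS proteins and CISH share an SH2 domain, which docks on phosphorylated tyrosines of receptors or JAKs, and a SOCS box, which recruits elongin B, elongin C and a cullin-RING ubiquitin ligase. CISH, SOCS1, SOCS2 and SOCS3 are classical feedback genes, since STATs induce their transcription and the proteins then dampen the receptor that was activated. SOCS4 to SOCS7 have longer amino-terminal regions and are better known for acting on receptor tyrosine kinases and insulin signalling. PIAS proteins are SUMO E3 ligases, and PIAS1 and PIAS3 were first described as inhibitors of activated STATs.

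Levels are given in FPKM, the reads counted on a gene per unit of its length and of the sample's depth, and values of a group are given in the order of replicates 1 to 3. Depth ran from 15222452 to 26949026 reads per sample, and replicates correlated with Pearson r of 0.964 to 0.987 across genes. BCL9 was at 6.25, 6.24 and 5.34 FPKM in NS control and at 2.86, 2.78 and 2.59 FPKM in BCL9 KD. Every KD sample was below every control sample, with a log2 fold change of −0.99 (SE 0.0933, limma adjusted p = 0.00773). Without NS control replicate 2, KD replicate 2 or KD replicate 3 the limma adjusted p was 0.0636, 0.060 and 0.070, with all fold changes between −1.06 and −0.95 when a replicate was left out. The 9 basal epithelial markers, led by KRT17, ITGB4 and KRT5, were all tested and summed to 1675 to 1916 FPKM in NS control and 1728 to 1752 FPKM in BCL9 KD. Luminal markers, mostly KRT18, summed to 172 to 219 FPKM in NS control and 153 to 168 FPKM in BCL9 KD, with PGR at 0 in every sample. Fibroblast markers summed to at most 0.905 FPKM, immune markers to 0.288 to 0.595 FPKM in NS control and 0.837 to 1.38 FPKM in BCL9 KD, and endothelial markers to 1.91 to 2.65 and 3.23 to 4.11 FPKM. The immune sum was mostly CD14 and the endothelial sum nearly all PECAM1, while the endothelial marker CDH5 stayed at or below 0.053 FPKM. PECAM1 was the one marker of these lists to pass (log2 fold change 0.61, limma adjusted p = 0.0477), in 7 of the 17 alternatives that tested it, with limma adjusted p up to 0.186. With a replicate left out, PECAM1 passed only without NS control replicate 3. Their part in the results below was not tested, and in bulk RNA fewer cells of a type and less RNA per cell cannot be told apart.

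The levels of the 10 genes divided them into abundant and scarce transcripts. In NS control samples SOCS7, PIAS3, SOCS5, SOCS4, SOCS6 and PIAS1 followed in that order of mean FPKM, from 8.82 down to 4.16 FPKM, and the ranges of each neighbouring pair overlapped. SOCS3 came next at 1.53 FPKM, and its 3 control values lay below all those of PIAS1. SOCS2, CISH and SOCS1 closed the order, and the ranges of CISH overlapped those of both its neighbours. In BCL9 KD the order began with SOCS4, PIAS3, SOCS6, SOCS5 and SOCS7, and it ended with PIAS1, SOCS3, SOCS2, CISH and SOCS1. The neighbours whose KD ranges overlapped were PIAS3 with SOCS6, SOCS5 with SOCS7, and CISH with SOCS1. The 4 feedback genes were thus the scarce ones, and their summed level was 2.95, 3.24 and 2.74 FPKM in NS control. The same sum was 3.76, 3.74 and 4.10 FPKM in the KD replicates. Set against all 8 SOCS-box genes, the 4 made up 11.4%, 9.48% and 7.15% of the summed FPKM in NS control. All KD shares, of at most 11.2%, lay inside that range, but its upper end was NS control replicate 1 alone. The shares of NS control replicates 2 and 3 lay below all KD shares. The summed level of SOCS4 to SOCS7 was 22.96 FPKM in NS control replicate 1, against 30.9 and 35.6 FPKM in NS control replicates 2 and 3.

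**Figure D1:**
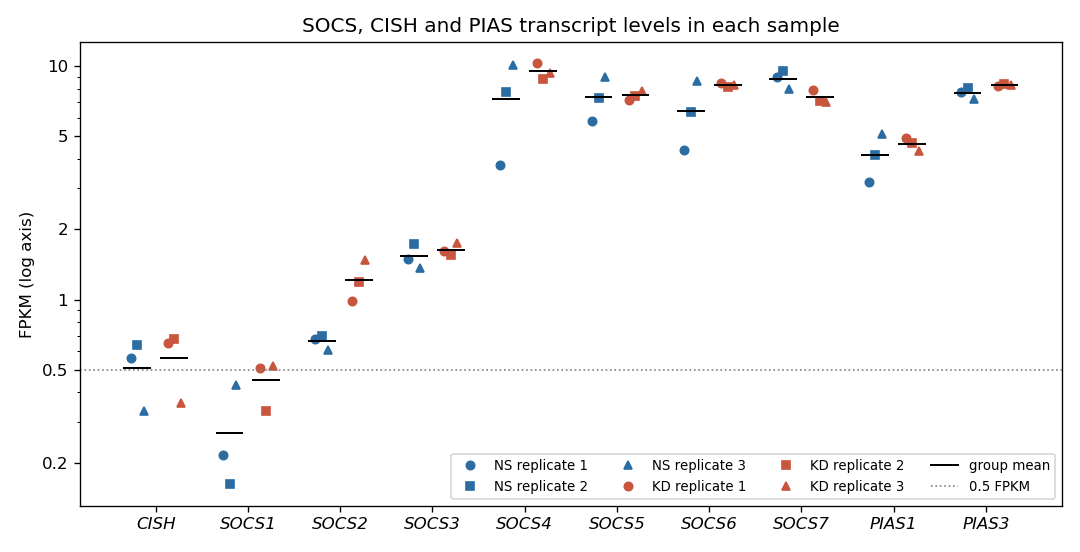
FPKM of the 10 genes in each sample, on a log axis. Blue symbols are NS control and red symbols BCL9 KD replicates, bars are group means of 3 samples and the dotted line marks 0.5 FPKM, the mean level needed for testing. CISH and SOCS1 to SOCS3 sit below the other genes, the SOCS2 groups separate, and NS control replicate 1 is the lowest point for SOCS4, SOCS5, SOCS6 and PIAS1.

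A gene was tested when its mean over the 6 samples reached 0.5 FPKM, which 9 of the 10 genes did and SOCS1 did not. None of the 9 passed an adjusted p of 0.05 in the limma fit on log2(FPKM + 0.5), a scale that understates the change of scarce genes, and over all 13745 genes tested 5.87% passed, 2.96% higher and 2.91% lower in KD. At an unadjusted p under 0.05 there were 2 of 9, SOCS2 and SOCS7, beside 27.5% of all genes tested. With voom, limma's fit on the reads recovered from the FPKM, 1 of 9 passed the adjusted threshold, SOCS2, beside 10.1% of all genes. The groups did not overlap for 3 of 9 genes, SOCS2 and PIAS3 higher and SOCS7 lower in KD, beside 34.2% of all genes tested (17.8% higher and 16.4% lower). The log2 fold change was above 0 for 8 of 9, beside 55.4% of all genes, and its median was 0.11 beside 0.04 for all genes. Of the 8 genes above 0, SOCS2 alone had a confidence interval that left out 0, and the count above 0 was 7 of 9 in 6 alternatives, among them the fit without NS control replicate 1, and 6 of 9 without that replicate and with a correction for GC content.

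CISH, a feedback gene of STAT5, lies at chr3:50606490-50611831 on the minus strand (hg38). Among the 7 genes with a promoter window to search, a STAT motif was found in that of CISH alone. The motifs sought were TTCNNNGAA, the spacing that most STATs bind, the same with 1 more N in its middle, the wider spacing typical of STAT6, and TTCCNGGAA, a narrower form of the first that counts in it too. RefSeq windows on GRCh38.p14, from 250 bases before to 50 after a transcription start, were searched for those 7 (9 windows). SOCS2, SOCS5 and SOCS7 were not searched, and the windows of SOCS3 and PIAS3 do not hold the start that the expression table gives these genes, so the sequence there was not searched. The motifs are palindromes, so a match on a strand is also one on the other. CISH held 4 matches to TTCNNNGAA, 2 of them also TTCCNGGAA, and they are shown with their flanks because all 4 lie in a single window. Each is written 5′ to 3′ on the minus strand, with the 9 matching bases in capitals.
match 1, chr3:50611997-50612024: cgccccgttTTCCTGGAAagttcttgga
match 2, chr3:50611986-50612014: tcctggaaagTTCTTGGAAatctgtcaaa
match 3, chr3:50611885-50611913: cagcccgcggTTCTAGGAAgacgctgctt
match 4, chr3:50611868-50611896: aagacgctgcTTCCGGGAAgggctggaac

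The stretches of matches 1 and 2 overlap each other, as do those of matches 3 and 4. Their first matching bases lie at −241, −230, −129 and −112 from the start. Of 35116 windows in RefSeq, 7.66% held TTCNNNGAA, 6.44% held the wider spacing and 1.15% held TTCCNGGAA. A match describes the letters of the window and is not evidence of binding.

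The CISH transcript was scarce, with 0.560, 0.638 and 0.334 FPKM in NS control from 65, 66 and 26 reads. The KD replicates were at 0.653, 0.675 and 0.362 FPKM from 59, 93 and 29 reads. The groups overlapped almost entirely, and replicate 3 was the low sample of each. The means of 0.511 ± 0.158 FPKM (SD, n = 3) and 0.563 ± 0.175 FPKM (SD, n = 3) gave a log2 fold change of 0.07, with a 95% confidence interval from −0.44 to 0.58 (limma adjusted p = 0.850). Only 1.52% of the tested genes had a lower mean, and the interval gives changes that the data do not exclude, not a limit of detection. It ran from −0.77 to 1.00 with 0.1 FPKM added and from −0.59 to 0.81 with voom. CISH overlaps 312 bases of MAPKAPK3 on the other strand, which had 1257 to 2338 reads per sample, and without stated strand reads from the shared bases cannot be told apart.

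SOCS1, which blocks JAK kinases directly through a kinase inhibitory region, lies at chr16:11254405-11256179. It had 6, 4 and 8 reads in NS control and 11, 11 and 10 reads in the KD replicates. These reads correspond to 0.216, 0.161 and 0.429 FPKM in NS control and 0.508, 0.333 and 0.521 FPKM in BCL9 KD, so the lowest KD value lay below the highest control value. The exact 95% Poisson intervals were wide, from 0.0440 to 0.413 FPKM in NS control replicate 2 and from 0.254 to 0.909 FPKM in KD replicate 1, and such intervals cover counting error only. The two-sided exact permutation p was 0.2, where 3 samples against 3 cannot give less than 0.1. The whole of SOCS1, 1775 bases, lies inside RMI2 on the opposite strand. RMI2 was at 3.84 to 4.42 FPKM in NS control and 4.89 to 5.29 FPKM in BCL9 KD. Here and for the other genes, overlaps are of whole gene spans, and exons were not compared. Without stated strand, reads from any bases that exons of both genes share cannot be told apart.

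SOCS2, which is known for limiting growth hormone signalling through STAT5, had a larger fold change than the other 8 tested genes, although SOCS4 exceeded it with 1 FPKM added and without KD replicate 3, and SOCS4 and SOCS6 did without NS control replicate 3. It lies at chr12:93569814-93583487 on the plus strand. Its level was 0.676, 0.700 and 0.611 FPKM in NS control, from 104, 96 and 63 reads. The KD replicates were at 0.985, 1.19 and 1.47 FPKM, from 118, 217 and 156 reads. All KD samples were above all control samples, and the control samples lay close together while the KD samples spread out. Means were 0.662 ± 0.0462 FPKM (SD, n = 3) and 1.21 ± 0.243 FPKM (SD, n = 3), a 1.83-fold ratio.

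On the log2(FPKM + 0.5) scale SOCS2 differed by 0.55 (SE 0.154), with an interval from 0.19 to 0.92. This did not pass the adjusted threshold on this scale (limma adjusted p = 0.0782). It passed with voom, where the log2 fold change was 0.80 (limma voom adjusted p = 0.0274), and when protein-coding genes alone were fitted (limma adjusted p = 0.0308, with 12.6% of those genes passing). SOCS2 was tested in 19 of the 20 alternatives, over which the fold change stayed between 0.41 and 0.80, and the limma adjusted p ran from 0.0274 to 0.279. SOCS2 shares 1955 bases with the antisense gene SOCS2-AS1, which had 5, 0 and 2 reads in NS control and 13, 11 and 4 reads in BCL9 KD, far fewer than SOCS2.

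SOCS3, the feedback inhibitor of gp130 receptors and a classical target of STAT3, lies at chr17:78356778-78360077. It was at 1.5, 1.74 and 1.37 FPKM in NS control, from 93, 96 and 57 reads. The KD replicates were at 1.61, 1.55 and 1.75 FPKM, from 78, 114 and 75 reads. Of the KD values, 2 lay within the control range and 1 just above it. The log2 fold change was 0.07 (95% confidence interval −0.20 to 0.35, limma adjusted p = 0.707) for means of 1.53 ± 0.186 FPKM (SD, n = 3) and 1.64 ± 0.104 FPKM (SD, n = 3). This fold change ran from 0.0153 to 0.14 with a replicate left out and was 0.0017 with quantile normalization.

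The proportion of SOCS2 to SOCS3 was read in each sample and was not tested. The ratio of SOCS2 to SOCS3 FPKM was 0.451, 0.404 and 0.446 in NS control and 0.610, 0.768 and 0.839 in the KD replicates. SOCS2 made up 22.9%, 21.6% and 22.3% of the summed FPKM of the 4 feedback genes in NS control, and 26.2%, 31.7% and 35.8% in BCL9 KD. Neither quantity overlapped between the groups, but both contain the SOCS2 values already given. SOCS2 itself did not overlap, beside 34.2% of all genes tested.

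The genes whose log2 values ran most nearly parallel to SOCS3 over the 6 samples were STPG1 (Pearson r 0.989), RP4-591C20.9 (0.984), MMP17 (0.979), CRTC2 (0.973) and DLX1 (0.972). These were picked as the highest of all tested genes over only 6 samples, and they describe a shared pattern alone. MMP17, a membrane-anchored matrix metalloproteinase, was at 1.43, 1.84 and 1.10 FPKM in NS control and 1.72, 1.49 and 1.85 FPKM in BCL9 KD, so it peaked and dipped in the samples in which SOCS3 did.

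Among the longer SOCS genes, SOCS7 was the one that lay lower in BCL9 KD. SOCS7, which binds the adaptor NCK and insulin receptor substrates, lies at chr17:38352228-38405593 on the plus strand. It was at 9.01, 9.48 and 7.96 FPKM in NS control, from 1764, 1654 and 1044 reads. The KD replicates were at 7.92, 7.05 and 7.03 FPKM, from 1207, 1638 and 950 reads. The groups did not overlap, but the lowest control sample and the highest KD sample nearly touched. Means were 8.82 ± 0.782 FPKM (SD, n = 3) and 7.34 ± 0.508 FPKM (SD, n = 3), and the log2 fold change of −0.25 (SE 0.0929) had an interval from −0.47 to −0.03 without passing the adjusted threshold (limma adjusted p = 0.143). It stayed below 0 in all 20 alternatives, from −0.32 to −0.20, with limma adjusted p from 0.0643 to 0.386.

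SOCS4, SOCS5 and SOCS6 varied mainly among the NS control samples. SOCS4, which with SOCS5 is known for lowering the EGF receptor, lies at chr14:55027230-55049488. It was at 3.78, 7.75 and 10.1 FPKM in NS control and at 10.3, 8.81 and 9.37 FPKM in the KD replicates. NS control replicate 3 was 2.68 times replicate 1 and lay among the KD samples. The log2 fold change of 0.47 had an interval from −0.26 to 1.19 (limma adjusted p = 0.356), and it was 0.09 without NS control replicate 1 and 0.75 without NS control replicate 3 (limma adjusted p = 0.675 and 0.108).

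SOCS6, which is known for restraining the receptor KIT, lies at chr18:70288901-70330200. It was at 4.35, 6.35 and 8.61 FPKM in NS control, from 591, 769 and 784 reads. The KD replicates were tightly grouped at 8.49, 8.13 and 8.27 FPKM, and NS control replicate 3 lay above them. Means were 6.44 ± 2.13 FPKM (SD, n = 3) and 8.30 ± 0.182 FPKM (SD, n = 3). The log2 fold change was 0.39 (SE 0.210, limma adjusted p = 0.272), with 0.15 without NS control replicate 1 and 0.61 without NS control replicate 3 (limma adjusted p = 0.455 and 0.0520).

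SOCS5 lies at chr2:46698952-46763129. It was at 5.82, 7.32 and 8.97 FPKM in NS control and at 7.18, 7.45 and 7.85 FPKM in the KD replicates. The 3 KD values lay inside the control range. The log2 fold change of 0.04 (95% confidence interval −0.30 to 0.39, limma adjusted p = 0.875) turned to −0.11 without NS control replicate 1.

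PIAS1, at chr15:68054179-68198603, had the same order of control samples. It was at 3.18, 4.17 and 5.11 FPKM in NS control and at 4.93, 4.70 and 4.31 FPKM in the KD replicates, so the highest sample of all was a control. Means were 4.16 ± 0.966 FPKM (SD, n = 3) and 4.65 ± 0.312 FPKM (SD, n = 3). The log2 fold change of 0.16 (SE 0.156, limma adjusted p = 0.515) was 0.0056 without NS control replicate 1 and 0.31 without NS control replicate 3 (limma adjusted p = 0.978 and 0.151). PIAS1 shares 7899 bases with CALML4 and 4803 bases with RP11-315D16.2, both on the opposite strand and with at most 100 reads in a sample.

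These 4 genes shared low GC content, from 39.8% for SOCS4 to 43.6% for SOCS5 and PIAS1, measured on their annotated transcripts. In each of them NS control replicate 1 was the lowest of the 6 samples and NS control replicate 3 the highest control. NS control replicate 1 was the lowest of the 6 samples for 35.0% of all genes tested and for 71.9% of the 3785 tested genes with a GC content up to 44%, a boundary chosen after the values were seen. With the tested genes divided by GC content into 5 equal groups, the median deviation of that replicate from a gene's mean over the 6 samples was −0.42 on the log2 scale in the group with the lowest GC content and 0.10 in the group with the highest. The other 5 samples deviated by −0.05 to 0.15 in the lowest group.

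With each sample's log2 values corrected for a smooth trend with GC content, the differences between the groups were 0.22 for SOCS4, 0.25 for SOCS6, −0.07 for SOCS5 and 0.06 for PIAS1. The limma adjusted p of SOCS4 was then 0.435 and that of SOCS6 0.233. SOCS2, with a GC content of 49.1%, kept a difference of 0.55 (limma adjusted p = 0.0565). With this correction, 11.5% of all genes with a GC value passed the adjusted threshold and none of the 9 genes did.

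**Figure D2:**
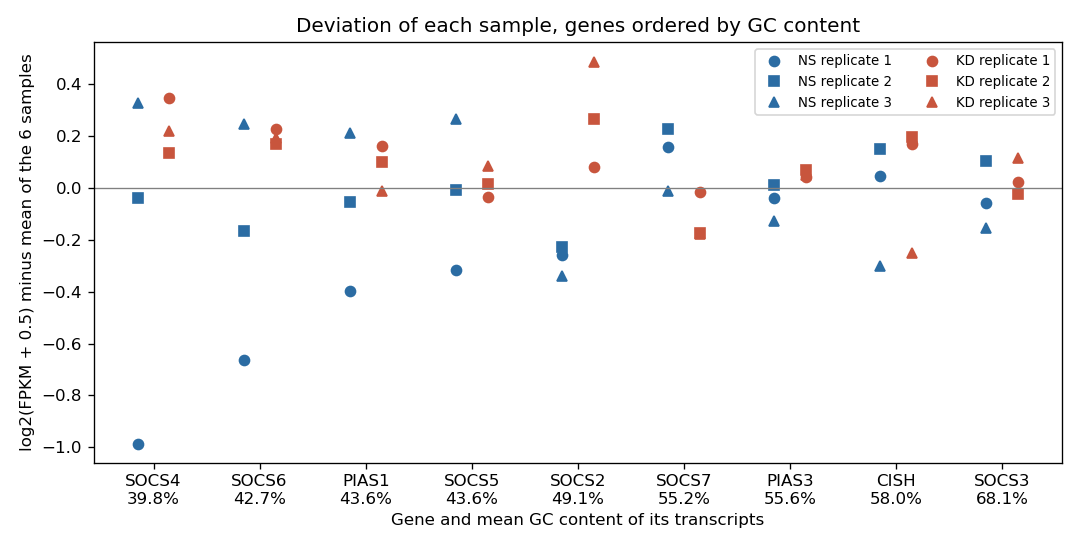
Deviation of each sample from the mean of the 6 samples on the log2(FPKM + 0.5) scale for the 9 tested genes, ordered from left to right by the mean GC content of their transcripts. Blue is NS control and red BCL9 KD. NS control replicate 1 lies below all the other samples for the 4 genes of 39.8% to 43.6% GC and within the spread for the genes of 55.2% GC or more.

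PIAS3, the inhibitor named for binding STAT3, lies at chr1:145848522-145859836 on the minus strand. It was at 7.73, 8.03 and 7.25 FPKM in NS control, from 844, 781 and 530 reads. The KD replicates were at 8.22, 8.39 and 8.28 FPKM, from 698, 1087 and 623 reads. All KD samples were higher than all controls, by little. The means of 7.67 ± 0.398 FPKM (SD, n = 3) and 8.30 ± 0.0896 FPKM (SD, n = 3) gave a log2 fold change of 0.11 with an interval from −0.06 to 0.28 (limma adjusted p = 0.361). It was between 0.07 and 0.14 in all 20 alternatives, and none passed the threshold. PIAS3 shares 432 bases with NUDT17 on the opposite strand, which had at most 64 reads in a sample. The ratio of PIAS3 to PIAS1 FPKM was 2.43, 1.93 and 1.42 in NS control and 1.67, 1.79 and 1.92 in the KD replicates, with all KD values inside the control range. Of the other family members, PIAS2 differed by −0.15 (limma adjusted p = 0.476) and PIAS4 by 0.08 (limma adjusted p = 0.520).

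**Figure D3:**
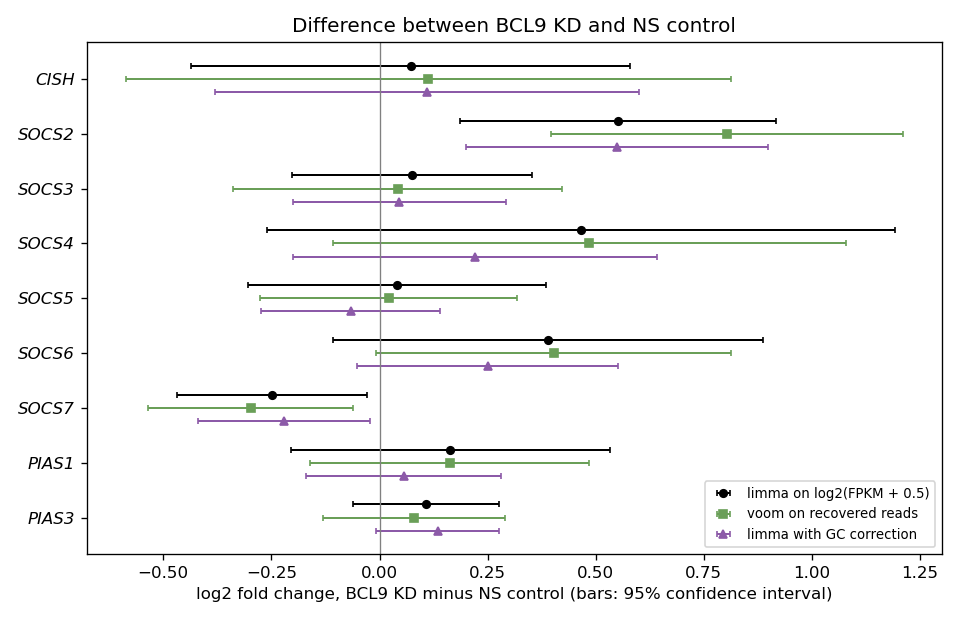
Log2 fold change of BCL9 KD minus NS control for the 9 tested genes, with 95% confidence intervals, in the limma fit on log2(FPKM + 0.5), in voom on recovered reads and in limma after the GC correction. SOCS2 is above 0 and SOCS7 below 0 with intervals that exclude 0 in all 3 fits, and the intervals of the other 7 genes include 0.

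The ubiquitin ligase that SOCS boxes recruit was represented by 6 genes, all tested. Of these, 2 rose and none fell, beside 2.96% of all genes tested higher and 2.91% lower in KD. The median log2 fold change was 0.54 beside 0.04 for all genes. TCEB2, the gene of elongin B, was at 107, 90.4 and 122 FPKM in NS control and at 151, 182 and 180 FPKM in the KD replicates. RBX1, a RING subunit of cullin ligases, was at 11.9, 10.5 and 10.4 FPKM in NS control and 14.6, 21.5 and 20.6 FPKM in BCL9 KD. Neither gene overlapped between the groups, beside 17.8% of all genes tested that were higher in KD without overlap. TCEB2 differed by 0.68 (SE 0.128, limma adjusted p = 0.0357) and RBX1 by 0.74 (SE 0.151, limma adjusted p = 0.0422).

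The remaining ligase genes had values above 0 without passing. They were TCEB1, which encodes elongin C, with 0.39, CUL5, the cullin that most SOCS proteins use, with 0.59, its RING partner RNF7 with 0.49, and CUL2 with 0.29. Their limma adjusted p were 0.0926, 0.255, 0.0954 and 0.289. CUL5, with a GC content of 40.7%, was at 2.48, 4.78 and 6.94 FPKM in NS control and at 6.96, 6.32 and 7.28 FPKM in the KD replicates, and CUL2, with 40.0%, was at 5.79, 8.85 and 9.04 FPKM and at 9.12, 9.99 and 9.70 FPKM. NS control replicate 1 was the lowest sample of both cullins, as for SOCS4. Without it their differences were 0.23 and 0.10, and with the GC correction 0.37 and 0.05. TCEB1, with a GC content of 40.0%, differed by 0.15 with the GC correction (limma adjusted p = 0.590) and by 0.51 without KD replicate 1 (limma adjusted p = 0.0394). The median of the 6 ligase genes was 0.46 without NS control replicate 1 and 0.42 with the GC correction. TCEB2 and RBX1 passed in 11 and 8 of 20 alternatives and not without NS control replicate 2, KD replicate 2 or KD replicate 3, with limma adjusted p up to 0.167 and 0.183, in fits in which 5 to 13 genes in all passed. They also did not pass without NS control replicate 1 (limma adjusted p = 0.0534 and 0.0520), nor did RBX1 without NS control replicate 3 (0.0520) or with the GC correction (0.0507).

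The SUMO conjugation genes, which supply the modifier that PIAS proteins attach, included none that passed among 6 tested, with a median of 0.24. SUMO2 differed by 0.27 (limma adjusted p = 0.156). Of the 10 phosphatases and adaptors that also damp JAK and STAT signalling, 8 were tested and none passed, with a median of 0.0038. PTPN1, a phosphatase of JAK2, differed by −0.18 and the adaptor SH2B3 by −0.12 (limma adjusted p = 0.138 and 0.484).

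The proteins that the SOCS and PIAS genes restrain were read in the same fit. Among the STATs 6 of 7 were tested, 1 fell and none rose, beside 2.91% of all genes tested lower and 2.96% higher in KD. STAT3, the STAT of IL-6 family cytokines, was at 39.0, 33.1 and 31.1 FPKM in NS control and at 24.5, 22.9 and 22.0 FPKM in the KD replicates. All KD samples lay below all controls, as for 16.4% of all genes tested. STAT3 fell by 0.56 on the log2 scale (limma adjusted p = 0.0325). It passed in 13 of 20 alternatives and not without NS control replicate 2, KD replicate 2 or KD replicate 3 (limma adjusted p = 0.130, 0.156 and 0.159). SOCS3, as a percentage of the STAT3 level in FPKM, was 3.84, 5.24 and 4.41 in NS control and 6.59, 6.76 and 7.95 in BCL9 KD. This percentage did not overlap between the groups, but it contains the lower STAT3 values already given, and SOCS3 itself overlapped. None of the 3 JAKs tested passed, and JAK2 differed by 0.09 and JAK1 by −0.08 (limma adjusted p = 0.80 and 0.513).

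Of 21 cytokine receptor genes, 17 were tested and none passed, with 9 above 0 and a median of 0.06. LEPR, the leptin receptor, differed by 0.60 (limma adjusted p = 0.101). IL6ST, which encodes gp130, the receptor chain that SOCS3 binds, was at 3.85, 8.70 and 14.0 FPKM in NS control and at 12.6, 11.2 and 11.7 FPKM in the KD replicates. Its control samples took the order seen in SOCS4 and spanned all the KD values. Its difference of 0.56 did not pass (limma adjusted p = 0.380), and its transcripts have a GC content of 37.6%.

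Other genes known to respond to STATs were tested for 14 of 16, and 2 rose and 1 fell, beside 2.96% and 2.91% of all genes tested. Their median was 0.04, as for all genes in this fit. It was 0.07 beside 0.0028 for all genes without NS control replicate 1, and 0.07 beside −0.01 with the GC correction. FOS, an immediate early transcription factor, was at 1.90, 2.11 and 1.44 FPKM in NS control and at 3.42, 3.36 and 3.43 FPKM in the KD replicates. CEBPD, a transcription factor induced by IL-6 family cytokines, was at 14.5, 11.2 and 12.0 FPKM in NS control and 17.0, 17.9 and 18.8 FPKM in BCL9 KD. CCND1, the cell cycle regulator cyclin D1, was at 96.5, 96.3 and 81.3 FPKM in NS control and 67.0, 61.6 and 60.0 FPKM in BCL9 KD. None of these 3 overlapped between the groups, beside 34.2% of all genes tested. FOS differed by 0.76 (SE 0.127), CEBPD by 0.50 (SE 0.105) and CCND1 by −0.53 (SE 0.0909), with limma adjusted p of 0.0290, 0.0450 and 0.0301. The calls held in 13, 10 and 13 of 20 alternatives and in none of the fits without NS control replicate 2, KD replicate 2 or KD replicate 3, with limma adjusted p up to 0.152, 0.193 and 0.157. Without KD replicate 1 the limma adjusted p of FOS was 0.0533 and that of CEBPD 0.0645, and without NS control replicate 3 that of CEBPD was 0.0535.

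**Figure D4:**
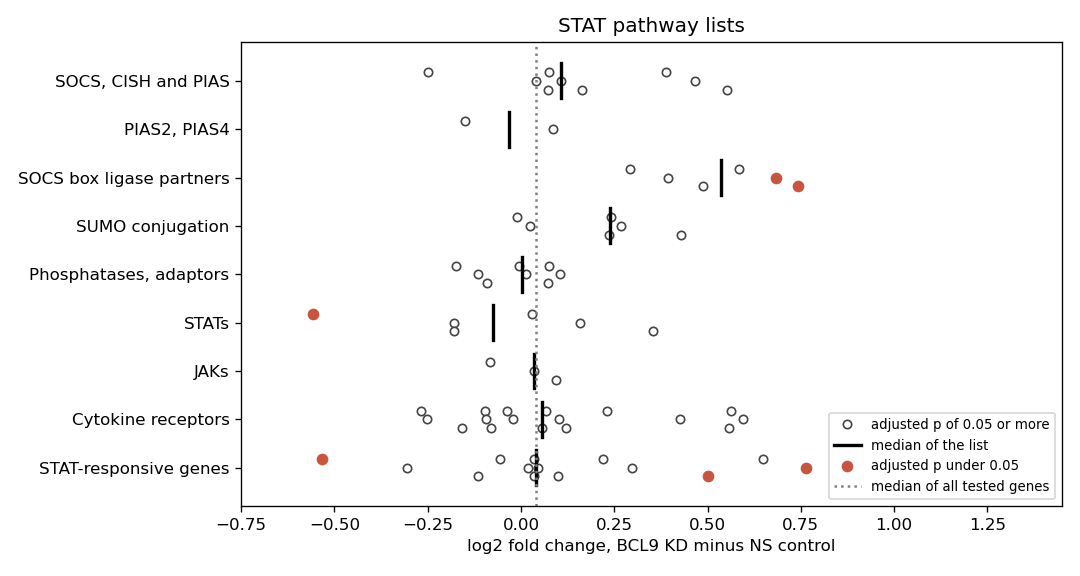
Log2 fold change of BCL9 KD minus NS control for the 9 tested SOCS, CISH and PIAS genes and the tested genes of 8 pathway lists. Open circles are genes with an adjusted p of 0.05 or more, red circles genes under 0.05, bars list medians and the dotted line the median of all tested genes, 0.04. The SOCS box ligase partners have the highest median, 0.54, and the red genes are STAT3 and CCND1 on the left and TCEB2, RBX1, FOS and CEBPD on the right.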

How the data were processed

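Total RNA from 3 NS control and 3 BCL9 KD flasks was made into paired-end libraries with the NEBNext Ultra RNA kit. According to the methods and the submitters' processing notes, the authors aligned reads with STAR to hg38, counted them with HTSeq 0.6.1 and deposited FPKM, with the gene length in bases as a further column of other values. Strand setting was not given in the sources used here. The methods describe the authors' DESeq2 test with 2 replicates per condition, and all 3 per group in the labels were used here. FPKM times gene length gave whole multiples of 1 read within 0.1 for 100% of values, and reads were recovered from them.

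BCL9 KD was compared with NS control by limma 3.58.1 in R 4.3.3, with a mean-variance trend in its empirical Bayes step, on log2(FPKM + 0.5). The 13745 genes whose FPKM averaged 0.5 or more were fitted, with Benjamini-Hochberg adjustment (threshold 0.05). The code was tested on simulated data. Tables were made in Python 3.11.15 with pandas 2.3.3 and numpy 2.4.6, plots with matplotlib 3.10.9 and exact tests with scipy 1.17.1. GC content came from GRCh37 transcripts, and the GC correction subtracted a loess curve with a span of 0.3.

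The genes and pathway lists were chosen with earlier results of these data known. Named are the 10 genes, BCL9, and from each list the genes with an adjusted p under 0.05 or, with none, the 2 with the largest fold change, of which 1 is not reported here. Other genes are list members, markers or genes overlapping the 10.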

Additional observations from a re-analysis of the deposited data

How the results depend on the processing

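There were 20 alternatives, of which 17 were planned and 3, all with the GC correction, were chosen after seeing the data. The number of genes passing in limma, 807, became 142 with no filter on low FPKM, 332 without the trend, 1409 with protein-coding genes only, 1389 with voom and 1566 with the GC correction, and 5 to 1712 when 1 replicate was left out (12 without NS control replicate 2, 13 without KD replicate 2, 5 without KD replicate 3 and 1712 without NS control replicate 3). Of the SOCS, CISH and PIAS genes, 1 (SOCS2) passed with protein-coding genes only and with voom, and 0 in the other 18 alternatives and in each fit with a replicate left out. SOCS5 turned below 0 with quantile normalization (−0.0131), without NS control replicate 1 (−0.11), with the GC correction (−0.0667, also with the replicate block) and with the GC correction without NS control replicate 1 (−0.12), where PIAS1 also did (−0.01). With a replicate left out, SOCS5 reached at most 0.18. CISH ran from −0.0606 without NS control replicate 3 to 0.22, with −0.0073 without KD replicate 2. BCL9 ran from −1.06 to −0.95 with a replicate left out, passing in 3 of 6 fits.

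The replicate numbers did not pair the samples, since the deviations of same-numbered samples correlated with a mean r of −0.08 and those of other samples with 0.04. With a replicate block, 0 genes passed in limma (3235 at an unadjusted p under 0.05), and 106 with the GC correction and the block. BCL9 stayed at −0.99 with the block (limma adjusted p = 0.0656). The causes were not tested. SOCS1, with 4 to 11 reads per sample, and CISH, with 26 to 93, have few reads, and each group has 3 flasks.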

Other observations

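STAT5A, the partner of STAT5B in growth hormone and prolactin signalling, was too scarce to be tested, and it was picked here after its values were seen. It was at 0.222, 0.283 and 0.206 FPKM in NS control replicates 1, 2 and 3, from 29, 33 and 18 reads, and at 0.521, 0.368 and 0.544 FPKM in the BCL9 KD replicates, from 53, 57 and 49 reads. The groups did not overlap, beside 34.2% of the tested genes.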
